A study of Mus musculus with 11 samples.

Results

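The cyclin-dependent kinase (CDK) inhibitors are the brakes of the cell cycle, and their genes are classic targets of Polycomb repression. The 7 genes described here were taken by symbol from the 23288 gene symbols of the deposited expression table: 3 of the Cip/Kip family (Cdkn1a, Cdkn1b and Cdkn1c) and 4 of the INK4 family (Cdkn2a, Cdkn2b, Cdkn2c and Cdkn2d). The study followed CBX6, a chromobox subunit of Polycomb repressive complex 1 (PRC1), in the mouse embryonic stem cell (ESC) line E14Tg2A, grown without feeder cells on gelatin in serum and LIF. RNA-seq compared 2 libraries of ESCs infected with a lentivirus carrying a control short hairpin RNA (shCtl) with 2 libraries under a hairpin against Cbx6 (shCbx6). Both kinds of cells were selected with an antibiotic. The study had 2 independent hairpins against Cbx6, and the labels do not say which of them each shCbx6 library carried. ChIP-seq peak lists gave the sites of CBX6 in 2 replicates, of CBX7, the main chromobox protein of ESCs, and of RING1B, the E3 ligase of PRC1. CBX6 was precipitated through a triple HA tag placed at the end of the endogenous gene by genome editing, from cells grown out of sorted single cells, while CBX7 and RING1B were precipitated with antibodies to the proteins themselves.

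CDK inhibitors bind cyclin-dependent kinases or their complexes with cyclins and hold back progress through G1. INK4 proteins bind CDK4 and CDK6, while Cip/Kip proteins act on a broader set of cyclin-CDK complexes. In many somatic cells PRC1 and its partner PRC2, which deposits H3K27me3, keep the Cdkn2a-Cdkn2b locus silent, and its derepression brings on senescence. Pluripotent stem cells cycle fast, with a short G1, and hold most of these inhibitors at a low level.

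The start regions of 3 of the genes are shown because the peak lists turned on them. Those of Cdkn2a and Cdkn2b lie in 1 stretch of chromosome 4 dense in peaks, and the start of Cdkn1b, which carried a peak of a single list, is set beside them. Cdkn2a has 2 promoters. The upstream one makes the transcript of the p53 activator Arf and the downstream one that of the INK4 inhibitor p16. Each stretch holds 300 bases of the mm9 assembly from 250 bases before an annotated GENCODE start, 5′ to 3′ on the strand of the gene, and CpG dinucleotides are in capitals.
Cdkn2a, Arf start, chr4:88940474-88940773, minus strand: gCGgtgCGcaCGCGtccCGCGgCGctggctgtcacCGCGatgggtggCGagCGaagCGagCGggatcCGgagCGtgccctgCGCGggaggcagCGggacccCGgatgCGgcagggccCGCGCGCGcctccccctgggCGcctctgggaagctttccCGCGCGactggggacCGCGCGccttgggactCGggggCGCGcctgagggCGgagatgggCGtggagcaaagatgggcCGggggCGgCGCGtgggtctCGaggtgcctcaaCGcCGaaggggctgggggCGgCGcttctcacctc
Cdkn2a, p16 start, chr4:88928047-88928346, minus strand: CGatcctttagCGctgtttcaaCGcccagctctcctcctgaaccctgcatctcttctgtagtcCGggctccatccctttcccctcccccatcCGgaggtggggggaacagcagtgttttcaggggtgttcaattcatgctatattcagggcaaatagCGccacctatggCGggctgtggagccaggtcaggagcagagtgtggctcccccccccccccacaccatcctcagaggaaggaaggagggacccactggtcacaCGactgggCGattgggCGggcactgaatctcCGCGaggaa
Cdkn2b, chr4:88956892-88957191, minus strand: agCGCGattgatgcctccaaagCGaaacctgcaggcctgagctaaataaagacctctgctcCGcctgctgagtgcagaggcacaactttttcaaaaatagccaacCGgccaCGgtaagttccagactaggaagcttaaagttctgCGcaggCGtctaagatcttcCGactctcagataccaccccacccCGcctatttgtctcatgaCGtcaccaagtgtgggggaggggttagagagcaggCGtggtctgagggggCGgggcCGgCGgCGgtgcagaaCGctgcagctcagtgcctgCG
Cdkn1b, chr6:134870169-134870468, plus strand: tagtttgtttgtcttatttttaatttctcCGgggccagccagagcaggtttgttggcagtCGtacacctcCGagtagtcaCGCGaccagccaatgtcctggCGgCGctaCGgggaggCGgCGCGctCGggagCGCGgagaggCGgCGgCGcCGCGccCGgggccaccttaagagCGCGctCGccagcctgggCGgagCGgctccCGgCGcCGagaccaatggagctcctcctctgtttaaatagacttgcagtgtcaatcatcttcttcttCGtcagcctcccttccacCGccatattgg

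The Arf start held 45 CpG dinucleotides, against a median of 12 over the 45975 annotated protein-coding starts of the genome. The Cdkn1b start held 30, the Cdkn2b start 18 and the p16 start 12. Both starts of Cdkn2c, by contrast, held 8, and the single start of Cdkn2d held 22. A CpG-rich start was therefore neither shared by all genes with peaks nor confined to them. The GC box word GGGCGG, searched on both strands, occurred 3 times at the Arf start and once each at the p16, Cdkn2b and Cdkn1b starts. It occurred 5 times at the start of Cdkn2d and at neither start of Cdkn2c. It was present in 44.2% of all protein-coding starts. The TATA box word TATAAA was found at none of the starts examined, and 11.4% of all starts held it. Neither of the E2F-like words TTTCGCGC and TTTGGCGC was found at any of them, and 0.946% of all starts held at least 1 of them.

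The libraries were first checked against their labels. Cbx6, the target of the hairpin, stood at 17.4 and 14.9 FPKM under the control hairpin and at 9.53 and 5.40 FPKM under its own. The groups did not overlap, and the log2 fold change was -1.06 (SE 0.26, limma with Benjamini-Hochberg adjustment, adjusted p = 0.247). With 1 library left out it lay between -0.70 (without shCbx6 replicate 2) and -1.42 (without shCbx6 replicate 1). FPKM are fragment counts scaled to transcript length and to the mapped fragments of a library, and fold changes here are differences of mean log2(FPKM + 1). The spacing of the lowest values placed the 4 libraries at about 28300000 to 33300000 fragments. The markers of pluripotent ESCs were high in every library, with sums of 1920 to 2718 FPKM over 6 genes. Markers of trophectoderm, the outer layer of the early embryo, moved with the groups: their sum over 8 genes was 13.6 and 17.9 FPKM in shCtl, against 34.8 and 255 in shCbx6, mostly through Krt8 and Krt18. Cdx2, Elf5 and Gata3, which define that layer, were under 1 FPKM in all 4 libraries but higher in shCbx6 without overlap, Cdx2 at 0.0156 and 0.0615 against 0.114 and 0.511 FPKM. Hand1 stood at 0.0535 and 0.0176 FPKM in shCtl and at 0.205 and 1.80 in shCbx6, while Eomes overlapped, at 2.12 and 1.42 FPKM against 1.63 and 1.92. The second shCbx6 library thus stood apart from the first, and values below are given per library for that reason. Nothing in the labels says whether replicates came from separate cultures, so p-values measure the spread between these libraries, and in bulk RNA fewer cells of a type and less RNA per cell cannot be told apart.

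The Cip/Kip genes were the most abundant inhibitors per length of transcript. In the shCtl libraries Cdkn1b averaged 16.8 ± 2.88 FPKM (SD, n = 2), Cdkn1a 12.7 ± 2.88 and Cdkn1c 10.4 ± 1.39, which placed them at percentiles 80.9, 77.1 and 74.6 of all gene symbols. The INK4 genes were lower. Cdkn2d averaged 3.94 ± 1.16 FPKM and Cdkn2a 2.45 ± 0.724, while Cdkn2c at 0.333 and Cdkn2b at 0.177 FPKM lay under the level of 1 FPKM from which the study called a gene expressed. In that order of levels Cdkn1a and Cdkn1c overlapped between their libraries, Cdkn1b and Cdkn1a came within 14.8 and 14.7 FPKM of each other, and the other neighbours were further apart. In the shCbx6 libraries the 3 Cip/Kip genes overlapped with each other, as did Cdkn2a and Cdkn2d, and Cdkn2b stood above Cdkn2c in place of below it. The summed FPKM of the Cip/Kip genes was 34.8 and 44.9 in shCtl against 37.0 and 47.2 in shCbx6, and that of the INK4 genes was 6.55 and 7.23 in shCtl against 7.14 and 9.95 in shCbx6.

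**Figure D1:**
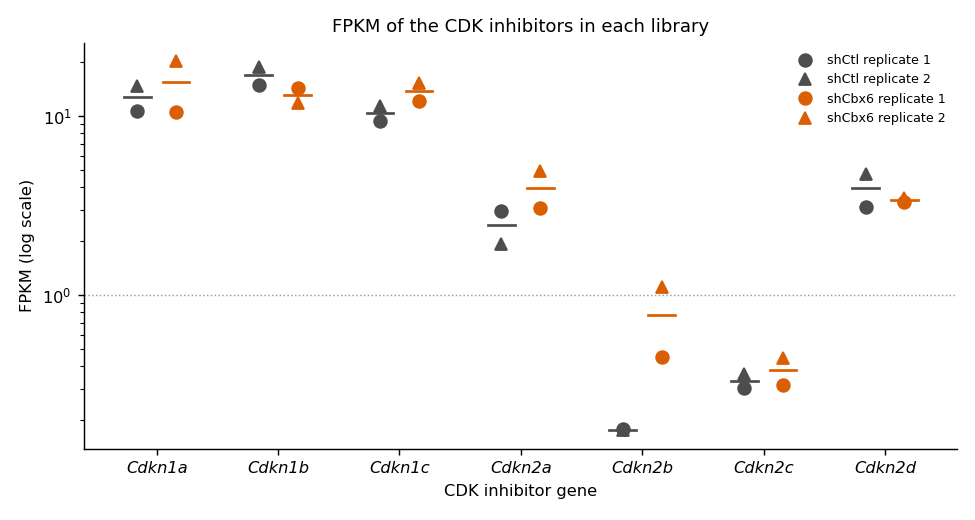
FPKM of each CDK inhibitor (log scale) in the shCtl libraries (grey) and the shCbx6 libraries (orange), with circles for replicate 1, triangles for replicate 2, horizontal bars for group means and a dotted line at 1 FPKM. The shCbx6 libraries of Cdkn2b, at 0.452 and 1.10 FPKM, lie above both shCtl libraries, and those of Cdkn1a lie on either side of the shCtl values.

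Whether loss of CBX6 changed the inhibitors was asked with limma over the 11592 genes that averaged at least 1 FPKM in either group. Of the 7 inhibitors, 5 entered the test and 0 were called at an adjusted p of 0.05, where 0.0949% of all genes tested were called. At an unadjusted p under 0.05 the count was also 0 of 5, where 11.7% of all genes stood. By a threshold of 1.5-fold, the size the study used, applied here to the ratio of group means, 1 of 5 was higher (Cdkn2a), against 7.63% of all genes, and 0 were lower, against 6.56%. Groups did not overlap for 3 of 5, lower for Cdkn1b and higher for Cdkn1c and Cdkn2a, which compares with 43.2% of all genes in either direction, 18.9% higher and 24.4% lower. The median log2 fold change was 0.21 over the 5 and -0.01 over all genes tested. For a single gene an exact two-sided permutation test of 2 against 2 libraries cannot give a p below 0.333.

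Cdkn1a encodes p21, the inhibitor that p53 induces after DNA damage. It stood at 10.6 and 14.7 FPKM in shCtl and at 10.6 and 20.2 FPKM in shCbx6. The groups overlapped, with the highest value in the second shCbx6 library, and the log2 fold change was 0.21 (SE 0.33, limma adjusted p = 0.858). Without that library the log2 fold change was -0.23, so the direction rested on it.

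Cdkn1b encodes p27, which accumulates in cells that leave the cycle. It stood at 14.8 and 18.8 FPKM in shCtl and at 14.3 and 11.7 FPKM in shCbx6. Both shCbx6 libraries were below both shCtl libraries, the nearest values being 14.3 and 14.8 FPKM, and the log2 fold change was -0.34 (SE 0.18, limma adjusted p = 0.548). Cdkn1b was the abundant inhibitor with the lower value after knockdown, and it did not pass the test.

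Cdkn1c encodes p57 and is imprinted, being read from the maternal chromosome. Its values were 9.39 and 11.4 FPKM in shCtl and 12.1 and 15.2 in shCbx6. Each shCbx6 library was above each shCtl library, and the ratios within same-numbered libraries were alike, at 1.29 and 1.34. The log2 fold change was 0.37 (SE 0.17, limma adjusted p = 0.502). It did not pass the test, and its ratio of means of 1.32 was below the 1.5-fold threshold.

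Cdkn2a, the gene of p16 and Arf, stood at 2.96 and 1.93 FPKM in shCtl and at 3.05 and 4.90 FPKM in shCbx6. The groups did not overlap, but the first libraries of the 2 groups were nearly level, with a ratio of 1.03, while the second differed by a ratio of 2.53. The ratio of means was 1.63 and the log2 fold change 0.52 (SE 0.26, limma adjusted p = 0.521). It crossed the 1.5-fold threshold only where the second library of both groups was included. The table gives 1 value for the symbol, so the p16 and Arf transcripts are not separated. Over the 4 libraries the genes with the pattern nearest to it were Prr19, Zcwpw1 and Peg3, at distances of 0.089, 0.102 and 0.109 on the centred log2 scale. Such a list over 4 libraries describes likeness alone.

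Cdkn2b, which encodes p15 and lies next to Cdkn2a, stood at 0.178 and 0.176 FPKM in shCtl and at 0.452 and 1.10 FPKM in shCbx6. Both shCbx6 libraries were well above the shCtl pair. Means were 0.177 ± 0.00157 and 0.778 ± 0.462 FPKM (SD, n = 2), a ratio of 4.40, with 2.54 and 6.29 within same-numbered libraries. Neither group averaged 1 FPKM, so the gene was outside the test. The steps between low FPKM values fit 7 and 7 fragments for shCtl against 17 and 49 for shCbx6, or a common multiple of these. An estimate from the annotated transcript length gave 7.41 fragments in the first shCtl library. Of those 4 numbers the shCbx6 pair differ more from each other than the shCtl pair do. Lowering the filter to 0.5 FPKM brought it into the test, with a log2 fold change of 0.57 (SE 0.22, limma adjusted p = 0.413). The gene passed that lower filter through the shCbx6 group, where it was high.

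Cdkn2c, the gene of p18, stood at 0.301 and 0.364 FPKM in shCtl and at 0.315 and 0.446 FPKM in shCbx6. The groups overlapped and the difference of 0.05 on the log2 scale was not tested, as both means were under 1 FPKM. Its steps fit 9, 11, 9 and 15 fragments in the same order of libraries or a common multiple, and the annotated length gave 16.1 for the first, so the multiple is not settled. Cdkn2d, the gene of p19, stood at 3.12 and 4.76 FPKM in shCtl and at 3.32 and 3.49 FPKM in shCbx6. The shCbx6 values lay inside the shCtl range, and the log2 fold change was -0.14 (SE 0.21, limma adjusted p = 0.845).

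The second shCbx6 library gave the highest value of all 4 libraries for Cdkn1a, Cdkn1c, Cdkn2a, Cdkn2b and Cdkn2c. It did not for Cdkn1b, at 11.7 FPKM, or for Cdkn2d, at 3.49 FPKM. The share of all genes that peaked there was not computed, so whether the inhibitors differ from other genes in this was not tested. The estimated depth was greatest for that library. It also had the most genes at 1 FPKM or more, 11325, and the fewest at 0, 5797. The sum of the trophectoderm markers was highest in that library too. Markers of fibroblasts, in which the INK4 genes are active, summed to 2.29 and 2.32 FPKM in shCtl and to 1.71 and 5.44 FPKM in shCbx6. Of these, 8 of 9 were under 1 FPKM in all libraries and Lum was at 0 throughout. Thy1 alone made 3.82 of the 5.44 FPKM. Col1a1, Col1a2 and Dcn, all under 1 FPKM, were higher in both shCbx6 libraries without overlap, where 18.9% of all genes tested were so. Col1a1 stood at 0.0336 and 0.0398 FPKM in shCtl against 0.0984 and 0.549. Col3a1 was nearly level in the first libraries, at 0.00563 and 0 FPKM in shCtl against 0.00589 and 0.0550. Pdgfrb, Thy1, Postn and Twist2 overlapped between the groups. The part of other cell types in the values of the inhibitors was not tested.

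Which inhibitors are bound was read from the deposited peaks with the window used in the study for target genes, from 2.5 kb upstream of a start to the end of the transcript. CBX6 replicate 1 had a peak at 6 of the 7 genes, all but Cdkn2d, in a list that marked 56.9% of all genes. CBX6 replicate 2 had a peak at 5 of 7 (Cdkn1a, Cdkn1c, Cdkn2a, Cdkn2b and Cdkn2c), against 16.6% of all genes. CBX7 had a peak at 4 of 7 (Cdkn1c, Cdkn2a, Cdkn2b and Cdkn2c), against 17.9%, and RING1B at 3 of 7 (Cdkn1c, Cdkn2a and Cdkn2c), against 16.1%. The inhibitors were chosen as known Polycomb targets, so these counts are a description. The scores printed below are those of the peak caller MACS, which grow with the evidence for a peak and gather at 3100 at the top of every list but CBX6 replicate 1. Score scales differ between antibodies and lists, the median being 95.3 for CBX6 replicate 1, 156 for CBX6 replicate 2, 300.4 for CBX7 and 402 for RING1B. Scores are compared within a list only.

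Cdkn2a (chr4:88920377-88940557, mm9, minus strand) and Cdkn2b (chr4:88952198-88956941, minus strand) share a stretch of 39065 bp, counted from the end of Cdkn2a to 2.5 kb upstream of Cdkn2b. Of that stretch CBX6 replicate 1 peaks covered 18.7%, CBX6 replicate 2 peaks 51.0%, CBX7 peaks 53.6% and RING1B peaks 24.3%. In 3 of the lists the widest peaks lay over the 3′ part of Cdkn2a, downstream of the p16 start. There CBX6 replicate 2 had a peak of 8273 bp at a score of 3100 (chr4:88917798-88926070), wider than 98.0% of the list. CBX7 had 1 of 7386 bp at 3100 (chr4:88917757-88925142) and RING1B 1 of 6135 bp at 2849 (chr4:88918029-88924163). CBX6 replicate 1 had only small peaks of 906 and 938 bp there, with scores of 54.1 and 68.4. The broad domain was therefore shared by 3 of the lists and barely called in the fourth.

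Both starts of Cdkn2a carried peaks of all 4 lists. At the p16 start the scores were 181 for CBX6 replicate 1, 1873 for CBX6 replicate 2, 1224 for CBX7 and 358 for RING1B. At the Arf start, printed above with its many CpG dinucleotides, they were 154, 994, 3100 and 1814 in the same order. Within the CBX7 and RING1B lists the Arf start thus had the higher score, and within both CBX6 lists the p16 start did.

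Cdkn2b had no RING1B peak in its window. CBX6 replicate 1 had a peak over its start with a score of 180 (chr4:88956093-88957303) and 1 at its 3′ end with a score of 77.2. CBX6 replicate 2 had a peak of 3193 bp over the start with a score of 1550 (chr4:88953891-88957083) and 1 at the 3′ end with a score of 184. CBX7 had a peak over the start with a score of 258 (chr4:88955561-88957065) and a wider 1 of 4154 bp over the body and 3′ end with a score of 467. Peaks covered 60.9% of the window in CBX6 replicate 2 and 63.6% in CBX7. Between the 2 genes lay a further peak of CBX6 replicate 2 (chr4:88947443-88950697, score 1029) and of CBX7 (chr4:88947551-88950795, score 675), and none of RING1B. The lowest score in the RING1B list was 50.0, so a weaker RING1B signal than that would not be listed.

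**Figure D2:**
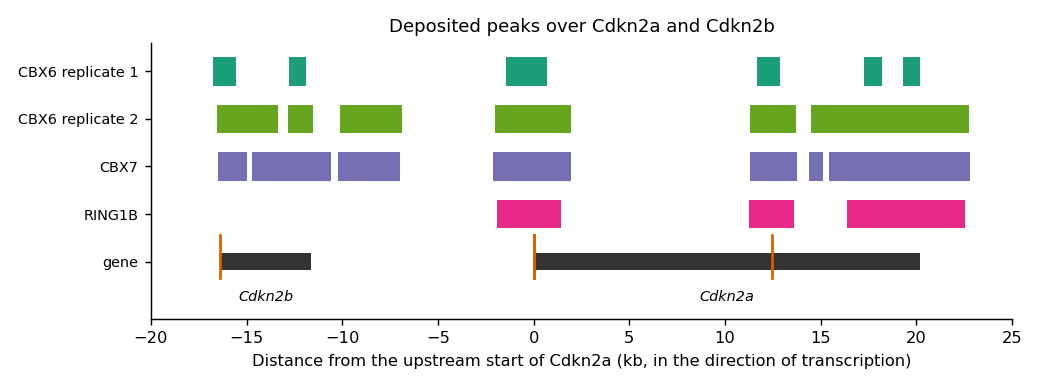
Deposited peaks over Cdkn2a and Cdkn2b by distance in kb from the upstream (Arf) start of Cdkn2a, with positive values in the direction of transcription, 1 row for each peak list, black bars for genes and orange ticks for annotated starts. All 4 lists have peaks at both starts of Cdkn2a, and RING1B has none over Cdkn2b.

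Cdkn1c (chr7:150644255-150646955, minus strand) had 1 peak of each list over its start and nearly all of its body. The scores were 336 in CBX6 replicate 1, above 97.2% of that list, 865 in CBX6 replicate 2, 3177 in CBX7 (chr7:150644377-150647141) and 3100 in RING1B (chr7:150643917-150647503). Further peaks of all 4 lists lay about 4 kb upstream of the start and about 15 kb downstream of it. The downstream site scored 219, 770, 1793 and 3100 in the same order of lists. The share of genes at or above its RNA level differed between the lists. Of the genes with a CBX6 replicate 1 peak 38.4%, and of those with a CBX6 replicate 2 peak 10.1%, were at or above its 10.4 FPKM in shCtl. Of the genes with a CBX7 peak 5.51%, and of those with a RING1B peak 5.98%, were so. The medians were 5.58, 0.324, 0.264 and 0.216 FPKM in that order of lists. As the gene is imprinted and the data do not separate the parental chromosomes, it cannot be told from them whether the RNA and the peaks came from the same copy.

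Cdkn2c (chr4:109333481-109339794, minus strand) also carried peaks of all 4 lists over its start region. They scored 173, 1109, 2415 and 2175 in CBX6 replicate 1, CBX6 replicate 2, CBX7 and RING1B. The RING1B peak (chr4:109335930-109340142) was the widest of them at 4213 bp and covered 47.8% of the window. A site about 7.5 kb from the nearer start, past the end of the gene, had peaks of all 4 lists too, with scores of 126, 1737, 1965 and 2270. Its 2 start regions were poor in CpG, unlike that of Arf.

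The other Cip/Kip genes had less. Cdkn1a (chr17:29227924-29237667, plus strand) had a CBX6 replicate 1 peak with a score of 260 that covered its middle annotated start (chr17:29230119-29233276). CBX6 replicate 2 had a peak inside it with a score of 54.7, higher than 7.64% of its list, and CBX7 and RING1B had none. Cdkn1b (chr6:134870419-134875531, plus strand) had a CBX6 replicate 1 peak over its start with a score of 151 and nothing else in its window. About 1.2 kb past its end, outside the window, lay a site with peaks of all 4 lists at 146, 148, 129 and 52.2.

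Cdkn2d (chr9:21092907-21095653, minus strand) had no peak in its window in any list. The nearest was a CBX6 replicate 2 peak of 592 bp downstream of the gene with a score of 57.8, which lies nearest to the start of the gene Kri1. Among the INK4 genes, the 3 with CBX7 peaks were those with the lower RNA levels in shCtl. Cdkn2d was the highest at 3.94 FPKM, though in shCtl replicate 1 it was close to Cdkn2a, at 3.12 against 2.96 FPKM. Across both families the order did not hold, as Cdkn1c, with CBX7 peaks, stood at 10.4 FPKM.

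The neighbours of the bound genes were looked at in the same way. At the Cdkn2a-Cdkn2b locus, Mtap, a methionine salvage enzyme gene, stood at 25.01 and 32.3 FPKM in shCtl and at 26.1 and 44.7 in shCbx6. It had peaks in the CBX6 lists, with highest scores of 105 and 60.9, and none of CBX7 or RING1B. Dmrta1 (chr4:89346127-89361463) and Elavl2 (chr4:90917454-91066675), both far from Cdkn2b at chr4:88952198-88956941, had peaks in all 4 lists. In the order CBX6 replicate 1, CBX6 replicate 2, CBX7 and RING1B, the highest scores at Dmrta1 were 122, 358, 412 and 612. At Elavl2 they were 54.0, 71.7, 101 and 90.5. Dmrta1 stayed at or under 0.0546 FPKM, while Elavl2, which encodes an RNA-binding protein, ranged from 7.40 to 9.48 FPKM. Ifna1 was listed at 0 in all 4 libraries and had no peak.

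Around Cdkn1c, 3 of 9 imprinted-domain neighbours with coordinates had peaks of CBX6 replicate 2, CBX7 and RING1B, namely Kcnq1, Phlda2 and Ascl2, against 16.6%, 17.9% and 16.1% of all genes. CBX6 replicate 1 had peaks at all 9, against 56.9%, the others being Slc22a18, Cd81, Tssc4, Nap1l4, Trpm5 and Tspan32. Phlda2, which restrains placental growth, was abundant, at 94.8 and 131 FPKM in shCtl and 99.1 and 118 in shCbx6. Ascl2 scored 1700 in CBX7 and 2049 in RING1B and ranged from 0.601 to 2.99 FPKM. Slc22a18 stood at 2.58 and 3.37 FPKM in shCtl and at 1.77 and 1.85 in shCbx6, without overlap (log2 fold change -0.49, SE 0.18, limma adjusted p = 0.391). Over both loci limma called 0 of the 9 neighbours tested, against 0.0949% of all genes. Slc22a18 was the 1 with an unadjusted p under 0.05, against 11.7% of all genes.

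The partners of the inhibitors were taken as lists. Of 16 cyclin and CDK genes 15 were tested. Of these limma called 0, against 0.0949% of all genes, with 0 at an unadjusted p under 0.05, against 11.7%. Cdk4 and Cdk6, the kinases that INK4 proteins bind, were at 479 and 555 against 468 and 447 FPKM and at 6.54 and 6.67 against 4.74 and 5.84 FPKM, both without overlap. Lower without overlap were 4 of the 15, against 24.4% of all genes, and among them Ccnd3 had the lowest log2 fold change of the list, -0.47. The 1 gene of this list lower past 1.5-fold, against 6.56% of all genes, was Ccnd2, named after its values were seen, at 2.75 and 0.675 FPKM in shCtl and 1.29 and 0.501 in shCbx6, so the groups overlapped. It was in the test through its shCtl mean alone. It carried peaks of all 4 lists, with 3100 in CBX7 and in RING1B. The list's median log2 fold change was -0.08. Peaks of CBX6 replicate 1 lay at 14 of the 16, against 56.9% of all genes, of CBX6 replicate 2 at 2, against 16.6%, of CBX7 at 3, against 17.9%, and of RING1B at 5, against 16.1%.

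Pocket proteins, which the CDKs phosphorylate, and the E2F factors they hold were all tested. Of the 13 limma called 0, against 0.0949% of all genes, with 0 at an unadjusted p under 0.05, against 11.7%. Higher without overlap were 5 and lower 3, against 18.9% and 24.4% of all genes. Rbl2, which encodes p130, was the 1 lower past 1.5-fold, against 6.56% of all genes, with 1.49 and 1.45 FPKM in shCtl and 1.07 and 0.818 in shCbx6. Its groups did not overlap (log2 fold change -0.35, SE 0.18, limma adjusted p = 0.552), and it too was in the test through its shCtl mean alone. Peaks lay at 12 of the 13 in CBX6 replicate 1, 1 in CBX6 replicate 2, and 3 each in CBX7 and RING1B, against 56.9%, 16.6%, 17.9% and 16.1% of all genes. The 12 genes for turnover of inhibitor proteins, among them Skp2 of the ligase that degrades p27, had 0 past 1.5-fold and 0 calls. The 14 genes of replication and mitosis had 0 and 0 as well. Of all genes tested, 7.63% were higher and 6.56% lower past 1.5-fold, and 0.0949% were called. Neither list had a gene with an unadjusted p under 0.05, against 11.7% of all genes. Without overlap the turnover list had 3 higher and 2 lower and the other list 0 and 5, against 18.9% and 24.4%. Log2 fold changes ran from -0.34 to 0.42 in the turnover list and from -0.25 to 0.25 in that of replication and mitosis. CBX6 replicate 1 had peaks at 11 of the 12 turnover genes and 13 of the 14 replication and mitosis genes, against 56.9% of all genes, and CBX6 replicate 2, CBX7 and RING1B at 0 of either list, against 16.6%, 17.9% and 16.1%.

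The list of p53 and its targets, to which Cdkn1a is linked by function, was examined last. Of 18 tested, 7 were higher past 1.5-fold, against 7.63% of all genes, and the median log2 fold change was 0.43. Without overlap 12 were higher and 1 lower, against 18.9% and 24.4% of all genes. An unadjusted p under 0.05 was reached by 7, of which Sesn1 was lower, against 11.7% of all genes. After adjustment limma called 0, against 0.0949%. Plk2, a Polo-like kinase gene, was at 2.67 and 2.99 FPKM in shCtl and at 4.76 and 12.0 in shCbx6 (log2 fold change 1.18, SE 0.39, limma adjusted p = 0.347). Bbc3, the gene of the death factor PUMA, was at 4.06 and 5.86 against 7.38 and 12.5 FPKM (log2 fold change 0.85, SE 0.28, limma adjusted p = 0.348). Perp was at 3.81 and 4.99 against 5.01 and 14.6 FPKM (log2 fold change 0.85, SE 0.45, limma adjusted p = 0.551). In these 3 genes as in Cdkn1a, the second shCbx6 library was the highest. So it was in the others past 1.5-fold, Btg2, Phlda3, Pmaip1 and Ccng1. Btg2 stood at 1.93 and 2.64 against 2.02 and 7.51 FPKM and Phlda3 at 5.50 and 8.69 against 7.33 and 19.3, with overlap. Pmaip1 was at 7.57 and 7.83 against 8.49 and 14.9 FPKM, and Ccng1 at 24.5 and 26.7 against 33.9 and 53.4. The count past 1.5-fold thus leaned on that library and was not recomputed without it. Trp53 itself stood at 189 and 207 FPKM in shCtl and 215 and 220 in shCbx6. Peaks lay at 17 of the 19 genes in CBX6 replicate 1, at 4 in CBX6 replicate 2 and in CBX7, and at 3 in RING1B, against 56.9%, 16.6%, 17.9% and 16.1% of all genes. Plk2, Perp and Pmaip1 were in all 4 counts.

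**Figure D3:**
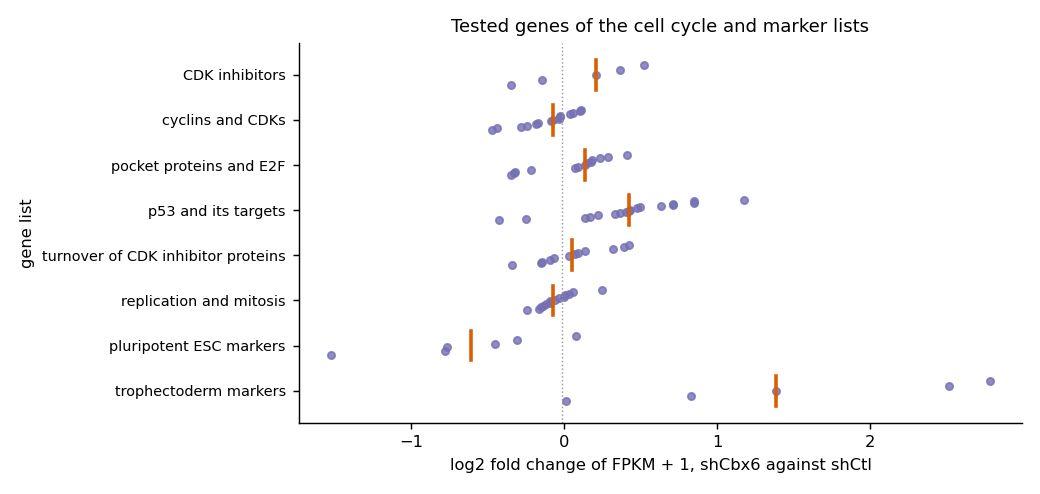
Log2 fold change of FPKM + 1 between shCbx6 and shCtl for each tested gene (points) of the inhibitors, 5 related lists and 2 marker lists, with orange bars at each list's median and a dotted line at the median of all genes tested, -0.01. The inhibitors spread from -0.34 to 0.52, while the median of p53 and its targets is 0.43 and that of replication and mitosis -0.07.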

How the data were processed

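ChIP-seq reads were mapped by the authors with Bowtie (mm9, unique hits kept), and MACS with a shift size of 75 bp called the peaks of each sample. The deposited lists give a MACS score per peak. RNA-seq reads were mapped by the authors with TopHat to the same assembly and turned into FPKM by Cufflinks over RefSeq transcripts. How transcripts were combined per symbol is not given in the sources used here. Both steps drop reads that map to several places, and FPKM cannot show a change in total RNA per cell. The HA and IgG control samples were not analysed here.

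All 11 samples were grouped by their titles. All 7 inhibitors were found by symbol. limma 3.58.1 (R 4.3.3; lmFit, eBayes with trend) was run on log2(FPKM + 1) for the 11592 genes that averaged 1 FPKM or more in shCtl or shCbx6, without a replicate term, and p-values were adjusted by Benjamini-Hochberg. Peaks were set on GENCODE genes of the same assembly with an overlap of at least 1 bp, and 94.3% of symbols were matched to them. Peaks up to 15 kb from each gene were read. The relative depth came from whole-fragment steps of low FPKM values, within 0.1 of a whole number. Alternatives changed the pseudocount, filter, scaling, replicate term, libraries, window and score minimum. Named besides the inhibitors and Cbx6 were, per list, up to 3 genes each way past 1.5-fold without overlap, 3 genes of nearest pattern and neighbours with a peak. Other genes were named for their function or after their values were seen. The members and lists were chosen with earlier results of these data known. The start region of 1 gene is not reported here.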

Additional observations from a re-analysis of the deposited data

How the results depend on the processing

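The call of no inhibitor by limma held in each of 55 recomputed log2 fold changes, whose lowest adjusted p was 0.122. The number of genes called, 11, was 26 without a filter on low FPKM, 17 with a pseudocount of 0.1, and 19 to 398 when 1 library was left out, the highest being without shCbx6 replicate 1. With the replicate number as a block it was 388, and Cbx6 was among them (limma adjusted p = 0.0425). The labels give no meaning to that number, and the deviations of same-numbered libraries correlated at 0.27 over genes with 2 pairs only. The log2 fold change of Cdkn1a ranged from -0.23 to 0.65 and that of Cdkn2d from -0.39 to 0.10 when 1 library was left out. Cdkn1a turned without shCtl replicate 1 or shCbx6 replicate 2, and Cdkn2d without shCtl replicate 2. The untested difference of Cdkn2b was 1.56 with a pseudocount of 0.1 and 0.87 with 0.5, and that of Cdkn2c 0.14 with 0.1, as a smaller pseudocount widens low values. The number past 1.5-fold, 1, was 2 with no filter or a filter at 0.5 FPKM (Cdkn2a and Cdkn2b), 0 if both same-numbered pairs had to pass, and 0 to 3 when 1 library was left out. It was 0 without shCbx6 replicate 2 or shCtl replicate 2, and without shCbx6 replicate 1 it was 3 (Cdkn1a, Cdkn2a and Cdkn2b). Of 16 recomputed peak counts 14 were unchanged. A window of 5 kb around starts gave CBX6 replicate 2 6 inhibitors by adding Cdkn2d, and a score of at least 100 gave it 4 by dropping Cdkn1a. Each group has 2 libraries, which limits the precision of every difference given, and peak lists show no signal under their lowest score.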

Other observations

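Of 6 pluripotency markers, 5 were lower in the shCbx6 libraries without overlap, against 24.4% of all genes tested, and Sox2 was not, at 133 and 152 FPKM in shCtl and 160 and 140 in shCbx6. Klf4 stood at 91.1 and 96.7 FPKM in shCtl and at 36.7 and 28.0 in shCbx6, Nanog at 321 and 359 against 204 and 192, and Esrrb at 203 and 189 against 151 and 87.2. These 3 of 6 genes were lower past 1.5-fold, against 6.56% of all genes. limma called 0 of 6 (adjusted p = 0.0842 for Klf4), against 0.0949% of all genes, with 4 at an unadjusted p under 0.05, against 11.7%. Among trophectoderm markers, Tfap2c stood at 2.84 and 2.21 FPKM in shCtl and at 7.41 and 9.04 in shCbx6, and 4 of 5 tested were higher past 1.5-fold, against 7.63% of all genes, Hand1 being in the test through its shCbx6 mean alone. limma called 0 of 5, against 0.0949%, with 2 at an unadjusted p under 0.05, against 11.7%. Krt18 stood at 3.66 and 6.91 against 13.2 and 122 FPKM, and Krt8 at 4.81 and 7.25 against 12.1 and 119. Primitive endoderm markers summed to 12.1 and 11.3 FPKM in shCtl and 4.74 and 4.77 in shCbx6, and that sum rested on Lama1, at 9.95 and 9.29 against 2.90 and 2.04 FPKM. Dab2 of the same list was higher without overlap, at 0.657 and 0.576 against 0.699 and 1.67 FPKM. Sox17 and Gata6, both under 1 FPKM throughout, were higher too, Gata6 narrowly at 0.111 and 0.150 against 0.158 and 0.188. Sox7 and Pdgfra, also under 1 FPKM throughout, were lower without overlap, Sox7 at 0.7003 and 0.604 against 0.361 and 0.228 FPKM. Of all genes tested, 18.9% were higher and 24.4% lower without overlap. Foxa2 was nearly level in the second libraries, at 0.0471 and 0.0155 FPKM in shCtl against 0 and 0.0139 in shCbx6.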
